A study of Mus musculus with 10 samples.

Results

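The 8 genes described here encode the machinery by which pyruvate enters mitochondria or is exchanged with lactate. They are *Mpc1* and *Mpc2*, the subunits of the mitochondrial pyruvate carrier, *Ldha* and *Ldhb*, the main subunits of lactate dehydrogenase, *Slc16a1*, *Slc16a3*, and *Slc16a7*, monocarboxylate transporters of the plasma membrane, and *Bsg*, which encodes basigin. They were chosen by name and not by a cutoff on their measured values, but with earlier results of these data known. All 8 were among the 51718 genes to which reads were summed and the 12383 genes with enough reads to be tested.

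RNA had been sequenced from CD45.2+ granulocyte-macrophage progenitors (GMPs), bone marrow cells that give rise to neutrophils and monocytes. The samples are labelled as male and C57Bl6/N. CD45.2 donor marrow was carried by irradiated CD45.1 recipients. In the mixed chimeras of the study it was given together with WT CD45.1 competitor marrow, and in full chimeras alone. Which kind was sequenced is not stated in the sources used here. In the study, full chimeras with *Mpc2* KO marrow did not survive 2 wk of tamoxifen, the time at which the samples here were taken. Sorting on CD45.2 set the donor cells apart from those of the host and of any competitor. WT donors were *ROSA26 CreER*+/- and recent KO donors were *Mpc2* fl/fl; *ROSA26 CreER*+/-, so that the groups shared the same ubiquitously expressed, tamoxifen-dependent Cre and differed in the floxed *Mpc2* alleles. Both groups received tamoxifen chow for 2 wk and were taken at once. Each group had 5 samples. In WT each sample was 1 mouse, whereas GMPs of 2 mice were pooled for each recent KO sample because cells were few. No WT group without Cre or without tamoxifen was analysed here, so that effects shared by both groups cannot be seen.

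Glycolysis ends in pyruvate in the cytosol. Pyruvate can cross the inner mitochondrial membrane through the carrier, in which MPC1 and MPC2 form a heterodimer and each subunit is needed for a stable complex, or it can be reduced to lactate by lactate dehydrogenase, a tetramer in which the A subunit is classically associated with lactate formation and the B subunit with lactate use. Lactate and pyruvate cross the plasma membrane through monocarboxylate transporters, of which MCT1 (*Slc16a1*) and MCT4 (*Slc16a3*) need basigin to reach the surface.

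The floxed part of *Mpc2* is exon 3. *Mpc2* (ENSMUSG00000026568) spans chr1:165460637-165481214 on the plus strand of GRCm38, and exon 3 of its main transcript, *Mpc2-201*, spans chr1:165478221-165478305. The sequences below, from the GENCODE M21 transcript, show what the deletion takes out of the message. In the line for the intact message, capitals mark exon 3, and the lower case letters are the 30 bases before and after it, from exons 2 and 4. In the other line, which is a construct made by joining these exons and not an observed read, capitals mark the bases of exon 4 that follow exon 2 when exon 3 is absent.
Mpc2-201 with exon 3: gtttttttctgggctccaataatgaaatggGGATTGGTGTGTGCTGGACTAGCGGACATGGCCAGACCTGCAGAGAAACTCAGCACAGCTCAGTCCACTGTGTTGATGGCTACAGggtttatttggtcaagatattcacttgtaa
Mpc2-201 without exon 3: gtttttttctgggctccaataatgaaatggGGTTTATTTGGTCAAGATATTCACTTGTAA

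Exon 3 is 85 bases long, which leaves a remainder of 1 base when it is divided by 3, so joining exon 2 to exon 4 shifts the reading frame. The annotated open reading frame has 127 codons. Without exon 3, translation on paper runs through 50 codons before the boundary and 9 in the new frame to a stop, the taa at the end of the line above, for 59 codons in all. Of the 1025 bases of *Mpc2-201*, 940 remain without exon 3. The deposited files count reads per transcript and not per exon, so reads of a message that lacks exon 3 can still be counted as *Mpc2*. How much of the remaining *Mpc2* signal is of that kind was not tested.

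*Mpc2* was the gene among the 8 that differed between the groups. Its level is given as normalized CPM, the estimated reads of a gene relative to the reads of its library after scaling for library composition. WT replicates 1 to 5 measured 61.0, 111, 95.2, 117, and 60.9 CPM, and recent KO replicates 1 to 5 measured 27.7, 17.1, 43.9, 37.0, and 35.0 CPM. The groups did not overlap. WT samples fell into a higher set of 3 and a lower pair, and recent KO replicate 2 had the lowest level. The lower pair, WT replicates 1 and 5, was also the lower pair in 4 of 7 lists of cell type markers. Their summed GMP markers were 91480 and 90035 CPM against 112468 to 127304 CPM in the other WT samples, and their summed mature neutrophil markers 207 and 296 CPM against 481 to 548 CPM. The part of this in the *Mpc2* values was not tested. The mean was 89.1 ± 26.9 CPM (SD, n = 5) for WT and 32.2 ± 10.2 CPM (SD, n = 5) for recent KO, which is a log2 fold change of -1.46 (SE 0.24, 95% confidence interval -1.98 to -0.95).

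The decrease in *Mpc2* had an adjusted p-value of 0.0155 by the quasi-likelihood test of edgeR, adjusted over all genes tested by the method of Benjamini and Hochberg. In that fit 0.331% of all genes passed the threshold of 0.05, and 0.21% passed it with a lower level in recent KO, against 1 of these 8 genes. Non-overlap between the groups was more common, at 2.41% of all genes. An exact two-sided permutation test of the 10 *Mpc2* values gave p = 0.00794, the smallest value that 5 samples against 5 allow. The call across all genes was lost, with the log2 fold change between -1.46 and -1.35, under a transcript length offset (adjusted p = 0.0732), robust dispersions (adjusted p = 0.135), and limma on log2(TPM + 1) (adjusted p = 0.130) or log2(TPM + 0.1) (adjusted p = 0.137). It was also lost in edgeR with replicate number as a block (log2 fold change -1.46, adjusted p = 0.0576), although these numbers only name samples.

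The remaining *Mpc2* signal varied between recent KO samples. Relative to the WT mean in CPM it was 19.2% in recent KO replicate 2, 31.1% in replicate 1, 39.3% in replicate 5, 41.6% in replicate 4, and 49.3% in replicate 3, with a group mean of 36.1%. In bulk samples, fewer cells with intact *Mpc2*, less *Mpc2* RNA per cell, and message that lacks exon 3 cannot be told apart. The recent KO values are also each an average over 2 mice, whereas each WT value is from 1 mouse.

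**Figure D1:**
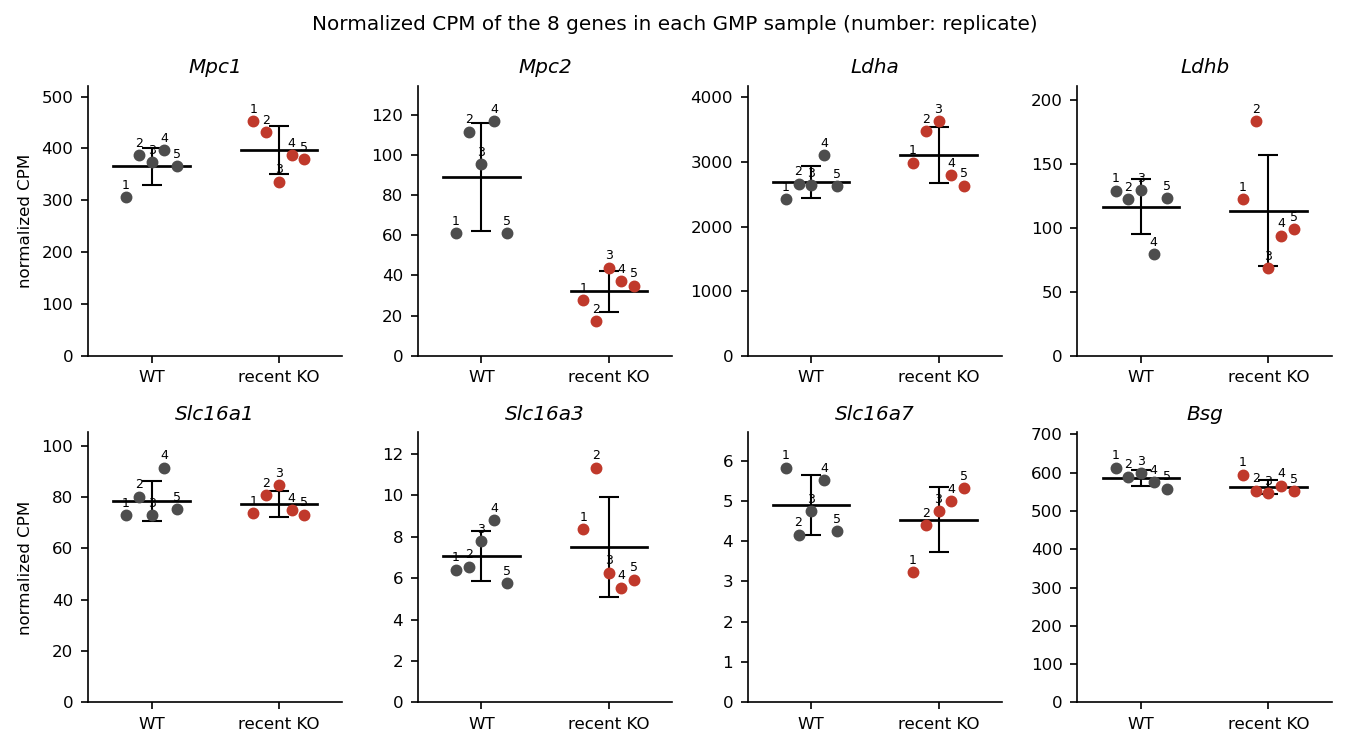
Normalized CPM (vertical axes, from 0) of the 8 genes in 5 WT (grey) and 5 recent KO (red) GMP samples, with the replicate number beside each point, the mean as a horizontal line and the SD as an error bar. *Mpc2* is the panel in which the groups separate, with WT samples at 60.9 to 117 CPM and recent KO samples at 17.1 to 43.9 CPM.

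Annotated transcripts of *Mpc2* were examined next, because they differ in whether they hold exon 3. *Mpc2-201* is the 5-exon coding transcript. *Mpc2-203*, a processed transcript that starts in the intron before exon 3 and runs through the last exons, and *Mpc2-204* also hold exon 3. *Mpc2-202*, which ends within the intron before exon 3, and *Mpc2-205*, which lies at the start of the gene, do not.

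Most reads were assigned to *Mpc2-201* in every sample, with 92.3 ± 5.65% of *Mpc2* reads (SD, n = 5) in WT and 85.9 ± 6.10% (SD, n = 5) in recent KO samples. Estimated reads of *Mpc2-201* were 1234, 1761, 1521, 1419, and 869 in WT replicates 1 to 5 and 321, 228, 774, 548, and 531 in recent KO replicates 1 to 5. The lower recent KO values thus also hold for the coding transcript alone, and the groups did not overlap in unscaled reads. *Mpc2-201* had a log2 fold change of -1.56 (SE 0.26) and an adjusted p-value of 0.148 in edgeR's test over 26197 transcripts, of which 0.042% passed, so this transcript did not pass.

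In WT samples *Mpc2-203* took 0% to 12.7% of *Mpc2* reads, and in recent KO samples 0% to 17.4%, with a log2 fold change of -0.74 and a 95% confidence interval of -3.13 to 1.65, so that a difference of either sign was not excluded. *Mpc2-202*, which has no exon 3, was singled out after its values were seen. It had 3, 3, 5, 0, and 9 estimated reads in WT replicates 1 to 5 and 9, 11, 8, 19, and 12 in recent KO replicates 1 to 5. These are few reads, they overlap between the groups, and the transcript was below the count filter and was not tested. Of the 53 annotated transcripts of the 8 genes, 20 had enough reads to be tested and 0 passed the adjusted threshold, while 1 had an unadjusted p under 0.05.

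**Figure D2:**
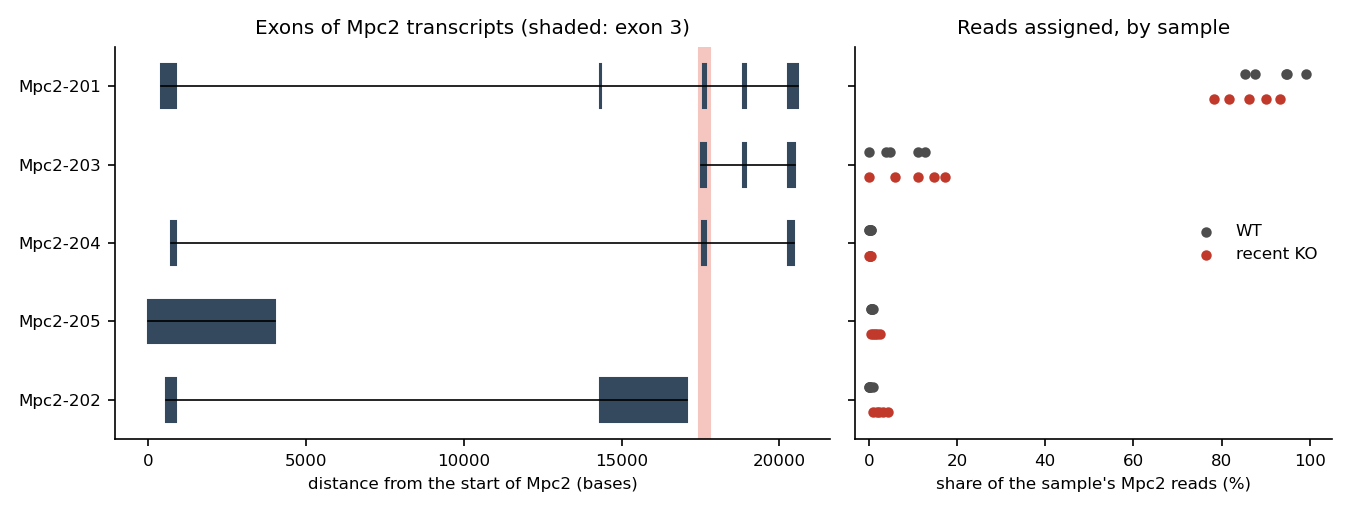
Left, exons (boxes, to scale) of the 5 annotated *Mpc2* transcripts by distance in bases from the start of the gene, with the position of exon 3 marked by a shaded band drawn wider than the exon. Right, the share of a sample's *Mpc2* reads (%) assigned to each transcript in WT (grey) and recent KO (red) samples, which for *Mpc2-201* was 85.3% to 99.1% in WT and 78.3% to 93.3% in recent KO.

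*Mpc1* encodes the partner subunit and lies at chr17:8282904-8297661 of GRCm38. It did not differ between the groups beyond the spread of the samples. For *Mpc1*, WT replicates 1 to 5 measured 306, 387, 373, 397, and 366 CPM, and recent KO replicates 1 to 5 measured 452, 431, 336, 387, and 379 CPM. Recent KO replicates 1 and 2 were above every WT sample, and the other recent KO samples lay within the WT range. Means were 366 ± 35.7 CPM (SD, n = 5) and 397 ± 45.7 CPM (SD, n = 5), a log2 fold change of 0.12 with a 95% confidence interval of -0.07 to 0.31 (adjusted p = 0.716, edgeR). These bounds correspond to 0.952 and 1.24 times the WT level of *Mpc1*. The estimate fell to 0.06 without WT replicate 1 and to 0.07 without recent KO replicate 1, and it was 0.19 with library size as the only scaling.

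The balance of the carrier subunits was compared on TPM, which is scaled to transcript length and so allows levels of different genes to be set side by side. *Mpc1* exceeded *Mpc2* in every sample, by 3.69 to 6.54 times in WT GMPs with a median of 4.82, and by 8.0 to 36.2 times in recent KO GMPs with a median of 12.3. The log2 ratio of *Mpc2* to *Mpc1* averaged -2.30 ± 0.36 (SD, n = 5) in WT and -3.84 ± 0.84 (SD, n = 5) in recent KO samples. The groups did not overlap, and the difference of -1.54 had p = 0.00794 in an exact two-sided permutation test and 0.0238 after adjustment over the 3 ratios compared here. Because *Mpc2* is the deleted gene, the lower ratio restates its decrease and is not a separate result. Leaving out each sample in turn moved this difference between -1.75 and -1.21.

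*Ldha*, at chr7:46841475-46855627, encodes the A subunit of lactate dehydrogenase and had the highest level of the 8 genes. It measured 2425, 2665, 2638, 3109, and 2623 CPM in WT replicates 1 to 5 and 2989, 3476, 3630, 2791, and 2632 CPM in recent KO replicates 1 to 5. Recent KO replicates 2 and 3 were above every WT sample, and recent KO replicates 1, 4, and 5 lay within the WT range. Means were 2692 ± 252 CPM (SD, n = 5) and 3103 ± 433 CPM (SD, n = 5). The log2 fold change of 0.21 (95% confidence interval -0.02 to 0.43) did not pass, with an adjusted p-value of 0.530 (edgeR). An exact two-sided permutation test of the CPM values gave p = 0.111.

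*Ldhb*, at chr6:142490249-142507957 on the minus strand, encodes the B subunit, and its level varied more among recent KO samples than among WT samples. Levels in WT replicates 1 to 5 were 129, 122, 129, 79.2, and 123 CPM. Recent KO replicates 1 to 5 measured 122, 183, 68.4, 93.9, and 98.6 CPM. WT replicate 4 stood below the other WT samples, whereas recent KO replicate 2 was above and replicate 3 below every WT sample. The coefficient of variation was 18.1% for WT and 38.4% for recent KO samples, and this difference in spread was not tested. Means were nearly level, at 117 ± 21.1 CPM (SD, n = 5) and 113 ± 43.5 CPM (SD, n = 5), with a log2 fold change of -0.04, a 95% confidence interval of -0.50 to 0.41, and an adjusted p-value of 0.966 (edgeR). The interval spans 0.707 to 1.33 times the WT level. Without recent KO replicate 3, 4, or 5 the fold change had the opposite sign, at 0.09, 0.02, and 0.0021.

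Among recent KO samples the order of *Ldhb* was the order of the summed markers in 3 of the 7 lists, those of GMPs, mature neutrophils, and B cells. The mature neutrophil markers were *Ltf*, *Camp*, *Ngp*, *Lcn2*, *S100a8*, *S100a9*, *Cxcr2*, *Mmp8*, and *Retnlg*, and summed to 940 CPM in recent KO replicate 2, 660.5 in replicate 1, 603 in replicate 5, 372 in replicate 4, and 212 in replicate 3. In the same order of samples, GMP markers summed to 91980, 83351, 74856, 70446, and 53679 CPM, and B cell markers to 65.0, 60.1, 52.6, 52.4, and 49.1 CPM. The GMP sum was mostly RNA of granule protein genes, with WT means of 60990 CPM for *Mpo* and 24640 CPM for *Elane*. *Cd34* and *Kit* had WT means of 231 and 38.3 CPM. In WT samples the order differed, since WT replicate 4, with the lowest *Ldhb*, had the highest neutrophil and GMP sums, 548 and 127304 CPM. The part of these cells or genes in the *Ldhb* values was not tested.

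On the per-length scale the A subunit made up most lactate dehydrogenase RNA. *Ldha* TPM exceeded *Ldhb* TPM by 13.2 to 27.5 times in WT GMPs and by 13.2 to 38.0 times in recent KO GMPs. The share of *Ldha* in the sum of *Ldha* and *Ldhb* was 93.0%, 94.0%, 93.6%, 96.5%, and 93.6% in WT replicates 1 to 5 and 94.7%, 93.0%, 97.4%, 95.5%, and 94.97% in recent KO replicates 1 to 5. The groups overlapped over most of their range. The difference of 1.00 percentage points had p = 0.302 in an exact two-sided permutation test (0.452 adjusted over the 3 ratios). It was 0.426 percentage points without recent KO replicate 3, 1.54 without recent KO replicate 2, and 1.60 without WT replicate 4.

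*Slc16a1*, at chr3:104638668-104658462, encodes MCT1, which carries lactate and pyruvate with a proton in either direction. In WT replicates 1 to 5 it measured 73.0, 80.1, 72.8, 91.4, and 75.4 CPM, and recent KO replicates 1 to 5 measured 73.6, 80.7, 84.5, 74.9, and 73.1 CPM. All recent KO samples lay within the WT range. Means were 78.5 ± 7.76 CPM (SD, n = 5) and 77.4 ± 5.01 CPM (SD, n = 5), and the log2 fold change of -0.02 had a 95% confidence interval of -0.18 to 0.14 (adjusted p = 0.956, edgeR), which is 0.882 to 1.10 times the WT level. Its sign turned under 4 alternatives, among them library size scaling (0.05) and leaving out WT replicate 4 (0.04).

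*Slc16a3*, at chr11:120948480-120960868, encodes MCT4, a transporter known for lactate export from glycolytic cells. Its level was low, with 91 to 162 estimated reads per sample. In CPM, WT replicates 1 to 5 measured 6.41, 6.54, 7.78, 8.78, and 5.75 CPM, and recent KO replicates 1 to 5 measured 8.37, 11.3, 6.25, 5.54, and 5.93 CPM. Recent KO replicate 2 was above every WT sample and replicate 4 just below them. The means of 7.05 ± 1.21 CPM (SD, n = 5) and 7.48 ± 2.41 CPM (SD, n = 5) gave a log2 fold change of 0.08 with a 95% confidence interval of -0.34 to 0.51 (adjusted p = 0.931, edgeR). Without recent KO replicate 2 the fold change was -0.11, and it lay between 0.02 and 0.17 without each other sample.

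*Slc16a7*, at chr10:125219270-125389465 on the minus strand, encodes MCT2, a transporter with high affinity for pyruvate and lactate. With 46 to 119 estimated reads per sample it was the gene with the fewest reads of the 8. WT replicates 1 to 5 measured 5.82, 4.16, 4.75, 5.52, and 4.25 CPM, and recent KO replicates 1 to 5 measured 3.23, 4.40, 4.74, 4.99, and 5.31 CPM. Recent KO replicate 1 was below every WT sample, and the other recent KO samples lay within the WT range. The means of 4.90 ± 0.746 CPM (SD, n = 5) and 4.54 ± 0.799 CPM (SD, n = 5) gave a log2 fold change of -0.11 with a 95% confidence interval of -0.46 to 0.25 (adjusted p = 0.884, edgeR). The estimate was -0.01 without recent KO replicate 1 and -0.03 without WT replicate 1, reached -0.17 without recent KO replicate 5, and was -0.31 with a transcript length offset. At this depth, differences of 0.726 to 1.19 times the WT level in *Slc16a7* were not excluded.

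*Bsg*, at chr10:79704491-79711969, encodes basigin, the membrane glycoprotein that escorts MCT1 and MCT4. Its level varied the least of the 8 genes, with a coefficient of variation of 3.60% in WT GMPs. WT replicates 1 to 5 measured 613, 590, 598, 574, and 558 CPM, and recent KO replicates 1 to 5 measured 595, 553, 546, 566, and 552 CPM. Recent KO replicates 2, 3, and 5 were below every WT sample, and the other recent KO samples lay within the WT range. Means were 587 ± 21.1 CPM (SD, n = 5) and 562 ± 19.5 CPM (SD, n = 5), a log2 fold change of -0.06 with a 95% confidence interval of -0.18 to 0.06 (adjusted p = 0.783, edgeR), and an exact two-sided permutation test gave p = 0.0952. With library size as the only scaling, the fold change of *Bsg* was 0.0087.

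**Figure D3:**
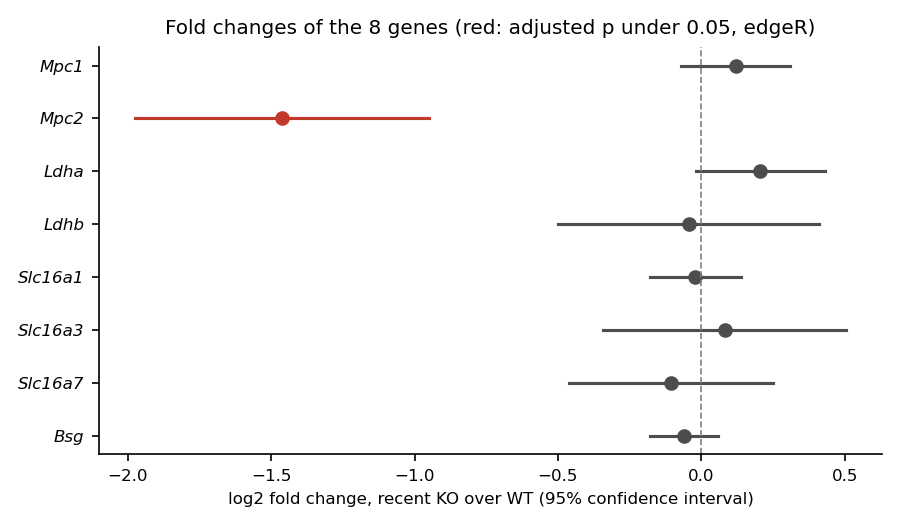
Log2 fold change between recent KO and WT GMPs, positive where recent KO is higher (horizontal axis), for the 8 genes, with 95% confidence intervals from edgeR as lines. *Mpc2* (red, -1.46, interval -1.98 to -0.95) passed an adjusted p of 0.05, whereas the intervals of the other 7 genes (grey) include 0 and lie between -0.50 and 0.51.

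Among the transporters, *Slc16a1* held the largest share of TPM, at 64.3 ± 10.1% (SD, n = 5) of the sum of *Slc16a1*, *Slc16a3*, and *Slc16a7* in WT and 65.0 ± 5.56% (SD, n = 5) in recent KO samples. The share was 53.4%, 54.8%, 66.8%, 69.8%, and 76.9% in WT replicates 1 to 5 and 59.0%, 68.0%, 72.7%, 60.7%, and 64.4% in recent KO replicates 1 to 5. All recent KO samples lay within the WT range. The difference of 0.628 percentage points had p = 0.897 in an exact two-sided permutation test (0.897 adjusted over the 3 ratios). The sign of this difference depended on the scale, at -1.20 percentage points when only protein coding transcripts were summed and -0.205 in estimated reads. *Slc16a7-203*, a processed transcript of 292 bases that weighs heavily in TPM because of its length, took 0% to 14.0% of *Slc16a7* reads in WT and 1.20% to 10.9% in recent KO samples.

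Set in order by mean TPM in WT GMPs, the 8 genes ran from *Ldha* (1584 TPM) through *Mpc1* (516), *Bsg* (465), *Mpc2* (108), *Ldhb* (98.4), *Slc16a1* (14.3), and *Slc16a7* (5.47) to *Slc16a3* (2.90). Sample ranges in WT overlapped between the neighbours *Mpc1* and *Bsg* (466 to 558 and 424 to 532 TPM), between *Mpc2* and *Ldhb* (71.3 to 151 and 62.4 to 118 TPM), and between *Slc16a7* and *Slc16a3* (1.98 to 9.40 and 2.37 to 3.47 TPM). *Slc16a7* was at 9.40 and 9.17 TPM in WT replicates 1 and 2 and at 3.51, 3.30, and 1.98 TPM in WT replicates 3 to 5. In CPM the order of *Slc16a7* and *Slc16a3* was the reverse, with WT means of 4.90 and 7.05 CPM. In recent KO GMPs *Mpc2* (43.3 TPM) came after *Ldhb* (98.3 TPM), with ranges of 19.2 to 61.5 and 59.9 to 169 TPM that overlapped slightly. The other 6 genes kept their places, at 1916 TPM for *Ldha*, 580 for *Mpc1*, 462 for *Bsg*, 14.9 for *Slc16a1*, 4.46 for *Slc16a7*, and 3.58 for *Slc16a3*. *Bsg* exceeded the summed transporters by 17.4 to 24.5 times in WT and 19.5 to 20.6 times in recent KO samples.

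**Figure D4:**
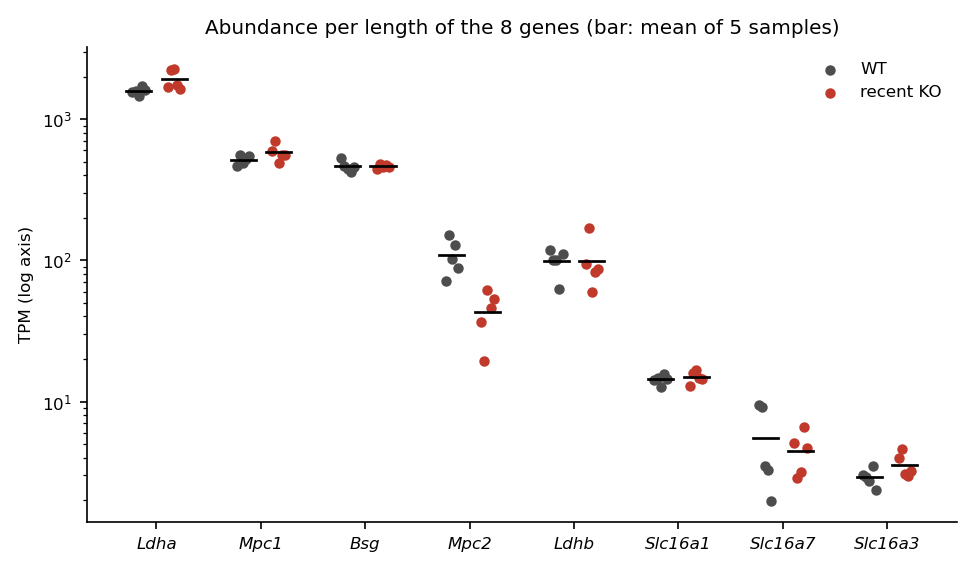
TPM (vertical log axis) of the 8 genes, ordered by mean WT level, with a point for each WT (grey) and recent KO (red) sample and a bar at the mean of 5 samples. Levels run from 1584 TPM for *Ldha* to 2.90 TPM for *Slc16a3* in WT, and *Mpc2* is the gene whose recent KO points lie apart from its WT points.

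The other genes were compared with the remaining *Mpc2* signal sample by sample. The values were set side by side, without a correlation, because each group has 5 samples and the groups are apart in *Mpc2*. From the lowest to the highest *Mpc2* the recent KO samples run as replicates 2, 1, 5, 4, and 3. *Ldhb* was the only gene of the other 7 with a strict order along these samples, falling from 183 through 122, 98.6, and 93.9 to 68.4 CPM. How many of all genes tested have a strict order along these 5 samples was not counted, so the order of *Ldhb* is a description. The order of *Ldhb* is also that of the GMP, neutrophil, and B cell marker sums given above. In WT samples *Ldhb* had no such order, although WT replicate 4, with the highest *Mpc2* (117 CPM), had the lowest *Ldhb* (79.2 CPM).

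The samples at the ends of the *Mpc2* range shared some features and differed in others. Recent KO replicate 2, with the least *Mpc2*, had the highest *Ldhb* and *Slc16a3* of all 10 samples. Recent KO replicate 3, with the most *Mpc2* of its group, had the highest *Ldha* of all samples and the lowest *Ldhb*. *Ldha* was therefore high at both ends, at 3476 CPM in replicate 2 and 3630 CPM in replicate 3. *Slc16a1* stayed between 73.1 and 84.5 CPM and *Bsg* between 546 and 595 CPM across the recent KO samples.

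**Figure D5:**
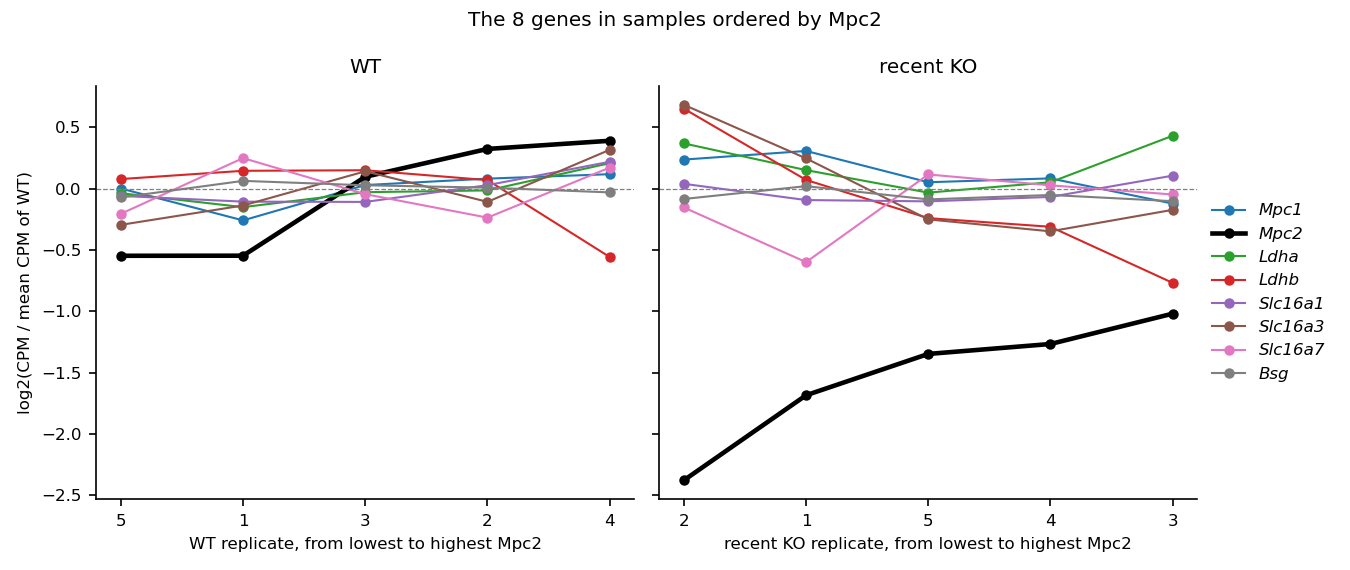
Log2 of CPM over the WT mean (vertical axis) for the 8 genes in WT (left) and recent KO (right) samples, which are placed from lowest to highest *Mpc2* and named by replicate; lines only join the points of a gene. *Mpc2* (black) rises by construction, *Ldhb* falls across the recent KO samples from 183 to 68.4 CPM, and the other genes cross one another.

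The genes around this step of metabolism were taken as a list of 64, of which 61 could be measured completely and 46 had enough reads to be tested. With 0 genes past an adjusted p of 0.05 in edgeR and 0 in DESeq2, none was called, in an edgeR fit that called 0.331% of all genes. At an unadjusted p under 0.05 there were 7 of the 46, beside 10.3% of all genes. The estimates were split evenly, 24 higher and 22 lower, with a median log2 fold change of 0.01 beside -0.0017 for all genes tested.

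Among genes that supply pyruvate by glucose uptake and glycolysis, 15 were tested, of which 7 were higher, 8 lower, and 0 called. *Pfkm*, the muscle-type phosphofructokinase, was at 6.81 ± 1.19 CPM (SD, n = 5) in WT and at 9.27 ± 1.60 CPM (SD, n = 5) in recent KO GMPs, with overlapping samples (log2 fold change 0.44, adjusted p = 0.322). *Hk3*, a hexokinase of myeloid cells, measured 235 ± 19.2 CPM (SD, n = 5) and 207 ± 15.8 CPM (SD, n = 5), also with overlap (log2 fold change -0.19, adjusted p = 0.373).

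Of the genes that use pyruvate in mitochondria and cytosol, 14 were tested, of which 8 were higher, 6 lower, and 0 called. *Pcx*, pyruvate carboxylase, which makes oxaloacetate from pyruvate, measured 2.74 ± 0.551 CPM (SD, n = 5) in WT and 1.76 ± 0.223 CPM (SD, n = 5) in recent KO GMPs, a log2 fold change of -0.64 (adjusted p = 0.269). *Pdha1*, the E1 alpha subunit of pyruvate dehydrogenase, which makes acetyl-CoA from pyruvate, measured 99.0 ± 3.28 CPM (SD, n = 5) and 112 ± 9.62 CPM (SD, n = 5), a log2 fold change of 0.18 (adjusted p = 0.329). The samples did not overlap for these 2 genes, which is true of 2.41% of all genes, and neither passed the test. *Pcx* ranged from 2.18 to 3.66 CPM in WT and from 1.60 to 2.10 CPM in recent KO samples. *Pdha1* ranged from 93.3 to 101 CPM in WT and from 103 to 127 CPM in recent KO samples.

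The remaining groups gave no calls either. Of the outer membrane porins and redox shuttles, 12 were tested, with 7 higher and 5 lower. Of the other monocarboxylate carriers and their partners, 4 were tested, and 5 of the 14 were at 0 reads in all samples. *Ldhc*, the testis-type lactate dehydrogenase, was the single tested gene of the other lactate dehydrogenases, at 0.780 ± 0.757 CPM (SD, n = 5) in WT and 0.928 ± 0.622 CPM (SD, n = 5) in recent KO GMPs.

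The profile most like that of *Mpc2* was sought among all 12383 tested genes by the root mean square difference of log2 CPM, each gene centred on its mean over the 10 samples. The 3 nearest were *Rps7* (0.367), a ribosomal protein gene, *Rab4a* (0.432), which encodes a GTPase of endosome recycling, and *Gm37376* (0.432), a predicted gene. *Rps7* averaged 867 CPM over WT and 375 CPM over recent KO samples, a log2 fold change of -1.21. None of the other 7 genes of pyruvate and lactate handling was among them. Since likeness was measured over the same samples as the group difference, these values are a description.

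The samples held 14033776 to 19745405 estimated reads, and 41 genes passed the test, 15 higher and 26 lower in recent KO GMPs, which turned to 26 higher and 20 lower with library size as the only scaling. GMP markers were high in every sample (90035 to 127304 CPM summed in WT and 53679 to 91980 CPM in recent KO samples). Of 10 GMP markers tested, 0 were called by edgeR, 7 had an unadjusted p under 0.05, and 2 (*Mpo* and *Fcgr3*) were called by DESeq2, with a median log2 fold change of -0.39. Of these 10 estimates, 8 were lower in recent KO samples and 2 were higher, *Cd34* (0.25) and *Kit* (0.08). The macrophage complement genes *C1qa*, *C1qb*, and *C1qc* passed the test among 8 macrophage markers, and the markers summed to 17.0 to 32.6 CPM in WT and 36.3 to 63.7 CPM in recent KO samples. Of these 8, 7 had a higher estimate in recent KO samples, with *Vcam1* the least at 0.18, and *Adgre1* had a lower estimate (log2 fold change -0.39). DESeq2 called the complement genes and *Cd5l*. Mature neutrophil markers summed to 207 to 548 and 212 to 940 CPM, and erythroid markers to 8.02 to 42.9 and 24.6 to 208 CPM, in WT and recent KO samples respectively. Of 9 neutrophil markers tested, 7 were higher and 2 lower in recent KO samples, and of 6 erythroid markers tested, 6 were higher (median log2 fold change 1.98). In each of these lists 5 had an unadjusted p under 0.05 and 0 were called, by edgeR or DESeq2. Megakaryocyte markers summed to 8.70 to 17.1 CPM in WT and 21.4 to 29.7 CPM in recent KO samples. Of 3 tested, 3 were higher with an unadjusted p under 0.05, 0 were called by edgeR, and *Pf4* was called by DESeq2. B cell markers summed to 56.2 to 66.0 CPM in WT and 49.1 to 65.0 CPM in recent KO samples, nearly all of it *Cd79b* (means 59.7 and 55.4 CPM). T and NK cell markers summed to 1807 to 2629 and 1631 to 2194 CPM, nearly all of it *Nkg7* (means 2242 and 1890 CPM). The other genes of these lists, among them the B cell factor *Pax5* and the T cell receptor subunit *Cd3e*, had group means of at most 0.662 CPM. The part of these cells in the values of the 8 genes was not tested.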

How the data were processed

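GMPs of 5 WT and 5 recent *Mpc2* KO samples were grouped by the sample labels. The authors made libraries with SMARTseq V4 (strand not stated), sequenced paired ends on an Illumina NovaSeq, and quantified GENCODE M27 transcripts, per the submitters' processing notes with Salmon 1.5.1 and DESeq2 2.11.40.6. The authors deposited estimated counts of reads per transcript, not normalized, and TPM, scaled to transcript length and to a fixed total. They also deposited a table of their DESeq2 comparison, of which only the signal column (mean count over all samples after size factors) was used, to check sums. Its fold changes, standard errors, statistics, p-values, and adjusted p-values were not used. Of its 14022 rows with all statistics, only that of *Mpc2* held extra fields and a statistic that is not fold change over standard error.

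The annotation used here was GENCODE M21 on GRCm38. Of 140789 transcripts, 137161 (97.4%) matched by identifier, and 3616 were left out (0.327% to 0.365% of a sample's reads). A further 12 were rejoined to their genes, a choice made after seeing the data. The length of each equaled that of an absent M21 transcript. Their mean reads, over 10, also filled the gap between the scaled authors' mean and the sum of matched transcripts to within 5%. Each pairing was unique. The main *Ldhb* transcript is 1 of the 12. The authors' mean over the sum used here was 0.999 to 1.01 for 7 of the 8 genes and 1.12 for *Slc16a7*. For *Ldhb* this closeness follows from the rejoining and is no check, since the ratio was 11.7 over its matched transcripts alone. The authors' mean exceeded the sum by over 1.5 times for *Tpi1* (71.3), *Mdh1* (20.5), *Ermap* (1.62), and *Klf1* (1.60). These genes were left out of list counts and sums, and *Mpc1l* had no match. *Ldha* has 2 and *Ldhb* 1 annotated copy at least 95% identical over at least 50% of the transcript (BLAST 2.17.0), with a mean of at most 1.80 reads. *4930506C21Rik* overlaps *Mpc1* on the opposite strand, with 10.4 reads on average in WT and 5.31 in recent KO samples.

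Reads were summed per gene, rounded, and tested with edgeR 4.0.16 (R 4.3.3; quasi-likelihood, TMM, filterByExpr with a minimum count of 10, group as the only term), with Benjamini-Hochberg adjustment at 0.05 over all genes tested, and likewise over transcripts. Ratios and single genes were also given exact permutation tests (two-sided). The code was tested on simulated data. In a sample, 3 counts correspond to 0.152 to 0.215 CPM, which covers counting error only, since reads of amplified cDNA that carry no molecular identifier are not independent. No replicate pair held identical values. Alternatives were other scalings and filters, a length offset, robust dispersions, limma 3.58.1 on TPM, DESeq2 1.42.0, a replicate block, sums with near-identical copies, and leaving out each sample. The genes and lists were chosen with earlier results of these data known. Named from the pathway list were genes called and otherwise the 2 with the smallest p in each direction, and beside them the 3 genes most like *Mpc2*.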

Additional observations from a re-analysis of the deposited data

Results flagged for a closer look

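The level of *Ldhb* in WT replicate 4, 79.2 CPM, lay far below the rest of the WT group, at 122 to 129 CPM. The gap was 0.860 of the whole WT range, above the limit of Dixon's test. Of 22 groups of values tested in this way, 1 was flagged, beside 1.10 given by chance at 1 in 20. Without this sample the log2 fold change of *Ldhb* was -0.15 with an adjusted p-value of 0.917 (edgeR).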

How the results depend on the processing

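The count of 41 genes called moved to 208 without a filter on low counts, 154 with DESeq2, 25 with limma on log2(TPM + 1), 24 with limma on log2(TPM + 0.1), and 20 with the replicate block. It ranged from 25 to 90 when samples were left out in turn, at 90 when recent KO replicate 2, 26 when WT replicate 3, and 25 when recent KO replicate 3 or 4 was absent. *Mpc2* kept its direction in all 22 alternatives and its call in 17. The call was lost under the replicate block (log2 fold change -1.46, adjusted p = 0.0576), a length offset (-1.40, 0.0732), robust dispersions (-1.46, 0.135), and limma on log2(TPM + 1) (-1.35, 0.130) or log2(TPM + 0.1) (-1.38, 0.137), and the cause was not tested. Leaving out each sample gave -1.60 to -1.31 with adjusted p-values of 0.0108 to 0.0499, and DESeq2 gave an adjusted p of 0.000315.

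None of the other 7 genes passed 0.05 under any alternative run. Signs turned with library size scaling for *Ldhb* (0.0152), *Slc16a1* (0.0545), and *Bsg* (0.00868), and for *Slc16a1* also with limma on log2(TPM + 1) (0.0541) and on log2(TPM + 0.1) (0.0573). Leaving out samples gave -0.286 to 0.0932 for *Ldhb*, -0.0544 to 0.0380 for *Slc16a1*, -0.113 to 0.172 for *Slc16a3*, 0.0609 to 0.174 for *Mpc1*, and -0.169 to -0.00997 for *Slc16a7*, and moved the difference in *Ldha* share between 0.426 and 1.60 percentage points. The difference in *Slc16a1* share was -0.205 percentage points in estimated reads, -1.20 with protein coding transcripts only, and -2.12 to 3.76 without each sample. Without the rejoined transcript, an alternative chosen after seeing the data, *Ldhb* had a fold change of -0.12 and the *Ldha* share differed by 0.256 percentage points. The log2 ratio of *Mpc2* to *Mpc1* kept its direction and an exact permutation p under 0.05 in all 13 alternatives. This ratio holds the deleted gene and its groups do not overlap, so these results restate the decrease in *Mpc2*.

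Replicate numbers are shared between groups whose samples came from different mice. Deviations of same-numbered samples correlated at -0.18 to 0.04 across genes, and 0 of 10 samples correlated best with its own number, so the numbers only name samples and the replicate block is given for completeness. The main limits are 5 samples a group, pooled mice in recent KO only, reads counted per transcript and not per exon, and few reads, 46 to 162 per sample, for *Slc16a3* and *Slc16a7*.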
